A study of Mus musculus with 8 samples.

Results

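Plasma cell identity was followed here through 7 genes, picked by symbol out of the 32285 genes counted in every cell: the transcription factors Prdm1, Irf4 and Xbp1, the surface receptors Sdc1 and Tnfrsf17, and the antibody assembly genes Jchain and Mzb1. They were read in the B-lineage cells of samples labelled as mouse spleen, by genotype and by sort, while the extraction protocol also names lymph nodes. The cKO mice were Eif3e fl/fl Cγ1Cre Rosa26-YFP LSL and the controls were Cγ1Cre Rosa26-YFP LSL, so both genotypes carried the Cre recombinase and the reporter and differed in the floxed Eif3e alleles. Cγ1Cre is driven from the immunoglobulin γ1 locus and acts once a B cell is activated, and the recombined cell and its progeny then express YFP, so that a YFP+ cell has seen Cre while the total sort was not selected for YFP. Animals were 2 months old, and each library held the pooled cells of several mice. The 8 libraries formed 4 groups of 2, namely total cells and YFP+ cells of each genotype (control total, control YFP+, then cKO total, cKO YFP+), and the 2 libraries of a group are batch 1 and batch 2, in which order values are given throughout. Whether the total and the YFP+ library of 1 genotype and batch share mice was not given in the sources used here.

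A B cell becomes a plasma cell by closing its B cell programme and opening a secretory one. Irf4 rises early and, with Prdm1 (Blimp-1), which represses B cell genes, sets this switch, and Xbp1 then enlarges the endoplasmic reticulum for antibody folding. Sdc1 (CD138) is the usual surface marker of plasma cells, Tnfrsf17 (BCMA) is the receptor through which APRIL keeps them alive, Jchain joins the units of secreted IgM and IgA, and Mzb1 is a chaperone of antibody assembly that is also active in marginal zone and B1 cells.

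In GENCODE vM21 (GRCm38, the build named in the submitters' processing notes) Prdm1 lies at chr10:44437177-44528501 on the minus strand, Irf4 at chr13:30749226-30766976 on the plus strand, Xbp1 at chr11:5520659-5525893 on the plus strand, Sdc1 at chr12:8771323-8793715 on the plus strand, Tnfrsf17 at chr16:11313812-11320074 on the plus strand and Jchain at chr5:88519809-88527891 on the minus strand. Mzb1 overlaps another annotated gene, SPATA24, on the same strand, and that entry is not among the genes counted. Whether reads of SPATA24 entered the Mzb1 count was not tested, so the Mzb1 count is less certain than the others. RefSeq (GRCm38.p6) gave the 250 bases before the start of 6 of the 7 genes. The 3 shown are those of the switch factors Prdm1 and Irf4 and of Tnfrsf17, since the results on single classes and on the sorts turn on these genes. Capitals mark matches to the motifs named after them.
Prdm1, chr10:44458749-44458998 (- strand): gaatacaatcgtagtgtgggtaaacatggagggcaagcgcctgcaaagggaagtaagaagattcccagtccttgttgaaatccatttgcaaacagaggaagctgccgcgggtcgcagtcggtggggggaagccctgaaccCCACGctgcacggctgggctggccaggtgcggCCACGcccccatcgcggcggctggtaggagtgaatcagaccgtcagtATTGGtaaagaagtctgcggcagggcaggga
Irf4, chr13:30748983-30749232 (+ strand): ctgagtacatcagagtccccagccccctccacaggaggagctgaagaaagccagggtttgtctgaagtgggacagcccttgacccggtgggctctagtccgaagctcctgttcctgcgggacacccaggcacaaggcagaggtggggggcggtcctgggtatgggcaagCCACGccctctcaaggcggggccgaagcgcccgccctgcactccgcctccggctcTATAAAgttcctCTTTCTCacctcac
Tnfrsf17, chr16:11313559-11313808 (+ strand): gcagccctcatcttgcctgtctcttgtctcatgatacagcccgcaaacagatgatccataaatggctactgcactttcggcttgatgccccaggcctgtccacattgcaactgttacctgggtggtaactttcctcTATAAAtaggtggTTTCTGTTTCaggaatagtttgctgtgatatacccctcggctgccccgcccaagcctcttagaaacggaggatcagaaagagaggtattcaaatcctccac

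The motifs searched, on both strands, were the UPR element TGACGTGG, the CCACG part of the ER stress element (whose reverse complement lies within TGACGTGG), the interferon-stimulated response element, the ETS-IRF composite element, the Blimp-1 core GNGAAAG, the octamer ATGCAAAT, the CCAAT box and the TATA box TATAAA. Prdm1 held CCACG at 110 and 78 bases before its start, and a CCAAT box on the other strand at 31 bases. Irf4 held CCACG at 81 bases, a TATA box at 26 bases and the Blimp-1 core on the other strand at 14 bases. Tnfrsf17 held a TATA box at 114 bases and the interferon-stimulated response element on the other strand. Of the genes not shown, Sdc1 held CCACG and CCAAT, while Xbp1 and Jchain held none of the 8 motifs in this window. Of 32851 mouse promoters of this length 28.3% held CCACG, 33.8% CCAAT, 19.4% the Blimp-1 core, 12.4% TATAAA and 2.98% the interferon-stimulated response element, and the 3 motifs found in none of the 6 promoters stood in 0.563% (TGACGTGG), 2.3% (the ETS-IRF composite element) and 1.6% (ATGCAAAT). These are matches of letters, not sites shown to be bound. The RefSeq start of Prdm1 used here lies inside the longer GENCODE gene.

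The libraries held 71894780 to 105224903 UMIs (unique molecular identifiers, the counted molecules) and 9276 to 11652 cells each after filtering, with a median of 5250 to 6810.5 UMIs per cell. Between 51 and 102 cell barcodes were shared by a pair of libraries, at most 0.9711% of a library. B-lineage cells numbered 67765 of 83704 and carried the defining marker Cd79a at 1281 to 2198 CPM (UMIs scaled to a fixed total of the summed cells), against 123 to 318 CPM in the T cells of the same libraries. The cKO libraries of batch 1 stood apart in Xist, at 544 and 638 CPM in B-lineage cells (total and YFP+) against at most 0.376 CPM in the other 6 libraries. Eif3e itself, read first as the targeted gene, was at 218 and 261 CPM in B-lineage cells of control total and at 231 and 278 CPM for cKO total. For YFP+ cells it was at 225 and 267 CPM (control) and 234 and 280 CPM (cKO). The assay counts 3′ ends, and where the floxed part lies relative to the counted end was not given in the sources used here, so these values neither check nor contradict the genotype labels.

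The plasma cell-like class held 2402 cells in 2 clusters, which were built without the 7 genes and named from 8 other markers (Derl3, Fkbp11, Txndc5, Creld2, Tent5c, Plpp5, Sec11c and Trp53inp1). The label of the gene set was borne out in these cells, given as a description: in each of the 8 libraries 6 of the 7 genes were higher in plasma cell-like cells than in any other B-lineage class, and Irf4 was so in 7. The margin differed by gene. Jchain exceeded the next class by 21.1 to 62.0 times and Tnfrsf17 by 6.45 to 320 times. Sdc1 did so by 11.2 to 35.5 times and Xbp1 by 6.25 to 16.7 times. The regulators Prdm1 (1.27 to 5.52 times) and Irf4 (0.995 to 1.70 times) set the class apart least, since B1-like cells held much Prdm1 and marginal zone-like (MZB-like) cells much Irf4, and Mzb1 exceeded the next class by 3.13 to 6.38 times.

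With every cell thinned to 2000 UMIs, a plasma cell-like cell showed on average 3.42 to 3.90 of the 7 genes across libraries and no other class exceeded 1.88. Of 66145 B-lineage cells deep enough to be thinned 523 showed at least 5 of the 7, and 515 of these (98.5%) were plasma cell-like. The other 8 were 6 B1-like cells, 1 pre-GCB-like cell and 1 cell of an unnamed cluster. Among plasma cell-like cells the share with at least 5 of the 7 was 28.6% and 26.8% in control total against 17.2% and 17.5% in cKO total. For the YFP+ sort it was 23.1% and 22.4% (control) against 14.2% and 10.1% (cKO). Both cKO libraries were lower than both control libraries in each sort, an order that was not tested. For the total sort the shares rest on few cells, 16 of 56 and 11 of 41 in control against 10 of 58 and 17 of 97 in cKO. Jchain was seen in 95.1% to 100% of thinned plasma cell-like cells and Mzb1 in 89.7% to 100%, while Tnfrsf17 was seen in 8.6% to 22.0% and Sdc1 in 11.7% to 23.2%, so a single cell at this depth often lacked a UMI of either receptor.

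**Figure D1:**
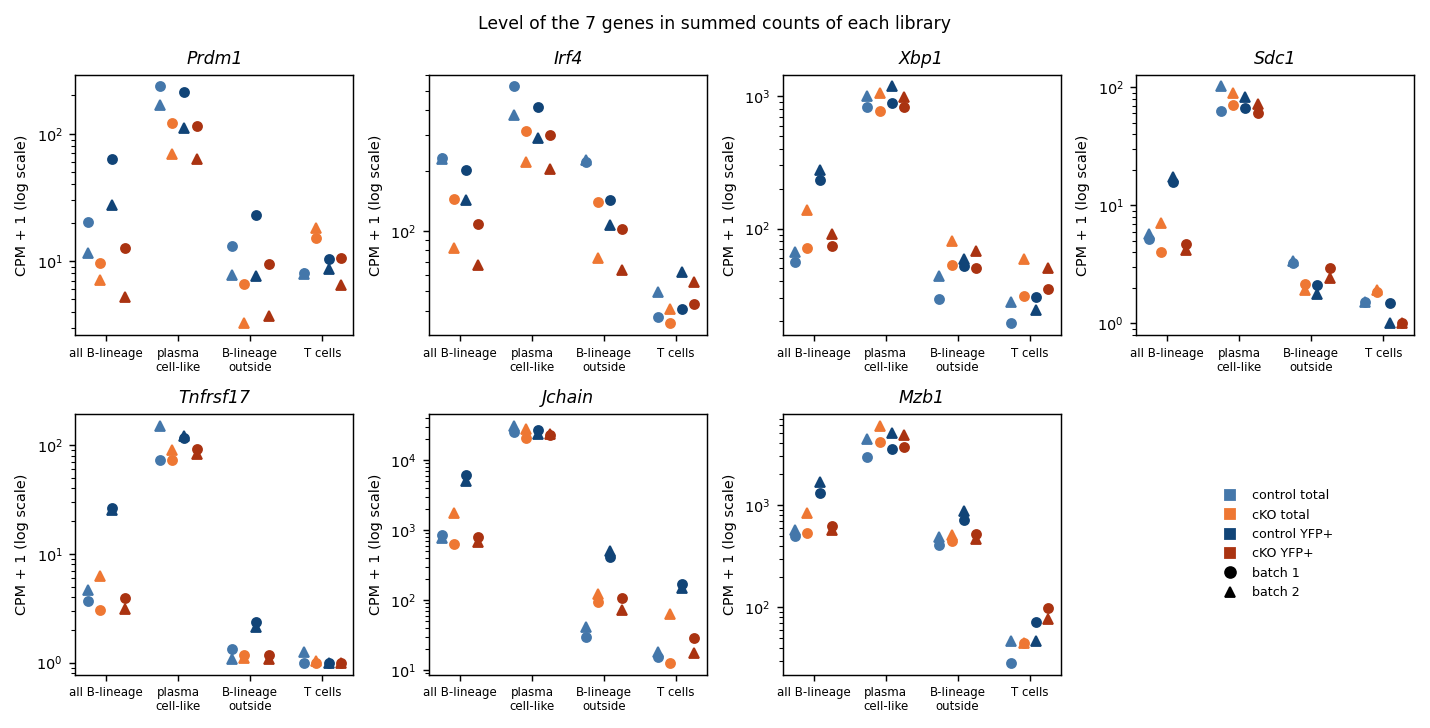
Level of each of the 7 genes in 4 populations of cells (all B-lineage, plasma cell-like, B-lineage outside plasma cell-like and T cells), as CPM + 1 on a log axis, with 1 point per library coloured by group. Jchain of B-lineage cells is highest in the 2 control YFP+ libraries, at 6069 and 4999 CPM, while in plasma cell-like cells all 8 libraries lie between 20547 and 31119 CPM.

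The first comparison asks how the 7 genes stood in YFP+ cells, those in which Cre had acted, with and without the floxed gene. In B-lineage cells summed per library 5 of the 7 genes fell in cKO YFP+ (Tnfrsf17, Jchain, Prdm1, Sdc1 and Xbp1), by 3.18- to 9.94-fold. Irf4 and Mzb1 did not pass the test. Among all 16122 genes tested 7.57% were called in either direction and 4.44% were called lower. The groups of libraries did not overlap for any of the 7 genes, which was so for 46.8% of all genes.

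Of the transcription factors, Prdm1 was at 62.8 and 26.7 CPM in control YFP+ and at 11.7 and 4.21 CPM in cKO YFP+. Batch 2 was the lower one in both genotypes, and the fall was 5.69-fold (log2 −2.51, SE 0.493, adjusted p 0.0258, and 0.0940 with library sums in place of TMM scaling). Xbp1 went from 230 and 277 CPM to 72.8 and 89.3 CPM, 3.18-fold lower (log2 −1.67, SE 0.322, adjusted p 0.0248). The call on Xbp1 rested on both cKO libraries, with adjusted p 0.196 without cKO YFP+ batch 1 and 0.0638 without batch 2. Irf4 was at 200 and 142 CPM in control YFP+ and at 107 and 66.6 CPM in cKO YFP+, a difference of −0.998 on the log2 scale with a 95% interval of −1.69 to −0.30 (adjusted p 0.0975). Irf4 was called with the batch as a replicate block (−1.01, adjusted p 0.00603), and without control YFP+ batch 1 (−0.87, 0.0342) or batch 2 (−1.12, 0.00528).

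Of the receptors, Tnfrsf17 showed the largest fold of the 7 genes, from 25.3 and 24.1 CPM to 2.91 and 2.14 CPM (log2 −3.31, SE 0.236, 9.94-fold, adjusted p 0.00319). Sdc1 was lower in level and moved likewise, from 14.9 and 16.4 CPM to 3.72 and 3.15 CPM (log2 −2.22, SE 0.239, 4.64-fold, adjusted p 0.0054). The batches of a group lay close together for both receptors, unlike for Prdm1.

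Of the antibody assembly genes, Jchain went from 6069 and 4999 CPM to 800 and 669 CPM (log2 −2.93, SE 0.338, 7.64-fold, adjusted p 0.00637). Mzb1 went from 1306 and 1689 CPM to 620 and 573 CPM, a difference of −1.37 on the log2 scale (95% interval −2.17 to −0.57) that missed the threshold at adjusted p 0.0559 and passed it with the replicate block (−1.34, adjusted p 0.00315) and without control YFP+ batch 1 (−1.64, 0.000293). It was also called with library sums (adjusted p 0.0474) and without immunoglobulin genes in the total (0.048). With the block, and also by DESeq2, all 7 genes were called, among 3017 genes with the block and 1772 by DESeq2, against 1220 without the block. Immunoglobulin UMIs moved with these genes: they made up 8.78% and 7.45% of B-lineage UMIs in control YFP+, 2.05% and 2.02% in cKO YFP+ and 2.02% to 3.39% in the total libraries. The T cell marker sum of the same cells was 16.4 and 10.5 CPM in control YFP+ and 45.6 and 36.3 CPM in cKO YFP+. Of the 7 markers in this sum 5 had negative values and 2 positive ones (median −0.20 on the log2 scale), and Lef1 alone was called, as higher. The part of this sum in the results was not tested.

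Other lists were set beside the 7 genes. Of 16 other plasma cell programme genes 7 fell, among them Ly6c2 (log2 −3.18), the costimulatory receptor Cd28 (−2.91) and the transcription factor Creb3l2 (−2.49), and the list's median was −1.07 against 0.0052 over all genes. Of 16 XBP1-linked secretory genes 3 fell, Derl3 (−2.18), Creld2 (−1.60) and Herpud1 (−1.22), all of which act in the handling of proteins in the endoplasmic reticulum. All 16 had negative values, with a median of −0.96. Of the 12 genes of the B cell programme, which holds repressors of Prdm1 such as Bach2 and Bcl6, none was called by edgeR (1 at an unadjusted p under 0.05). Of 12 immunoglobulin constant genes 7 fell, led by Ighg3 (−4.24), Ighg2c (−3.74) and Ighg2b (−3.57), while Ighe (4.10) and Ighd (1.56) rose. Of 10 cell cycle genes Ccnb2 (−1.67) and Ccnb1 (−1.18) fell, and of 7 T cell markers Lef1 rose (2.95). With library sums in place of TMM scaling the higher calls made up 52.65% of all calls in place of 41.31%.

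The change in B-lineage sums joins a change in the number of plasma cell-like cells with any change within them, and the cell data allow these to be read apart. Plasma cell-like cells made up 10.2% (893 of 8739) and 9.10% (1050 of 11543) of B-lineage cells in control YFP+, and 1.19% (113 of 9495) and 0.904% (94 of 10393) in cKO YFP+. The share fell 9.19-fold (log2 −3.20, SE 0.368, adjusted p 0.00102 over 11 classes). Every other class was called as well, except transitional B-like cells (adjusted p 0.751). T-bet+ B-like (26.5-fold) and memory B-like cells (15.6-fold) fell further, and GCB-like, MZB-like and B1-like cells fell less. Pre-GCB-like, naive B-like, interferon-response B-like and unnamed cells rose. With RLE factors over the classes the change of the plasma cell-like share was −1.45 and not called (adjusted p 0.0820). In the total libraries this share was 0.935% and 0.536% in control and 0.825% and 1.40% in cKO, where the groups overlapped (log2 0.60, adjusted p 0.391).

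How much of each gene's signal came from this class differed by gene. In control YFP+ plasma cell-like cells supplied 94.7% and 91.9% of the B-lineage UMIs of Jchain, 95.8% and 96.3% of Tnfrsf17 and 94.1% and 96.1% of Sdc1. They supplied 82.5% and 83.1% of Xbp1 and 72.2% and 80.2% of Prdm1. Their part was 57.2% and 58.5% for Mzb1 and 44.3% and 39.6% for Irf4, the gene with most of its signal elsewhere. In cKO YFP+ the same cells still supplied 86.9% and 89.5% of Jchain and 94.3% and 96.3% of Tnfrsf17. They supplied 48.6% and 56.6% of Sdc1, 29.5% and 37.4% of Prdm1 and 34.6% and 27.7% of Xbp1. For Mzb1 it was 17.9% and 21.3%, and for Irf4 8.51% and 7.67%. Per 1000 B-lineage cells, plasma cell-like cells of control YFP+ gave 55712 and 41616 UMIs of Jchain against 6207 and 5816 for cKO YFP+. A single plasma cell-like cell held on average 545 and 457 UMIs of Jchain (control) against 522 and 643 (cKO). These means were not scaled for depth, and the median depth was 19556 and 18381 UMIs (control) against 19782 and 26674.5 UMIs (cKO).

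**Figure D2:**
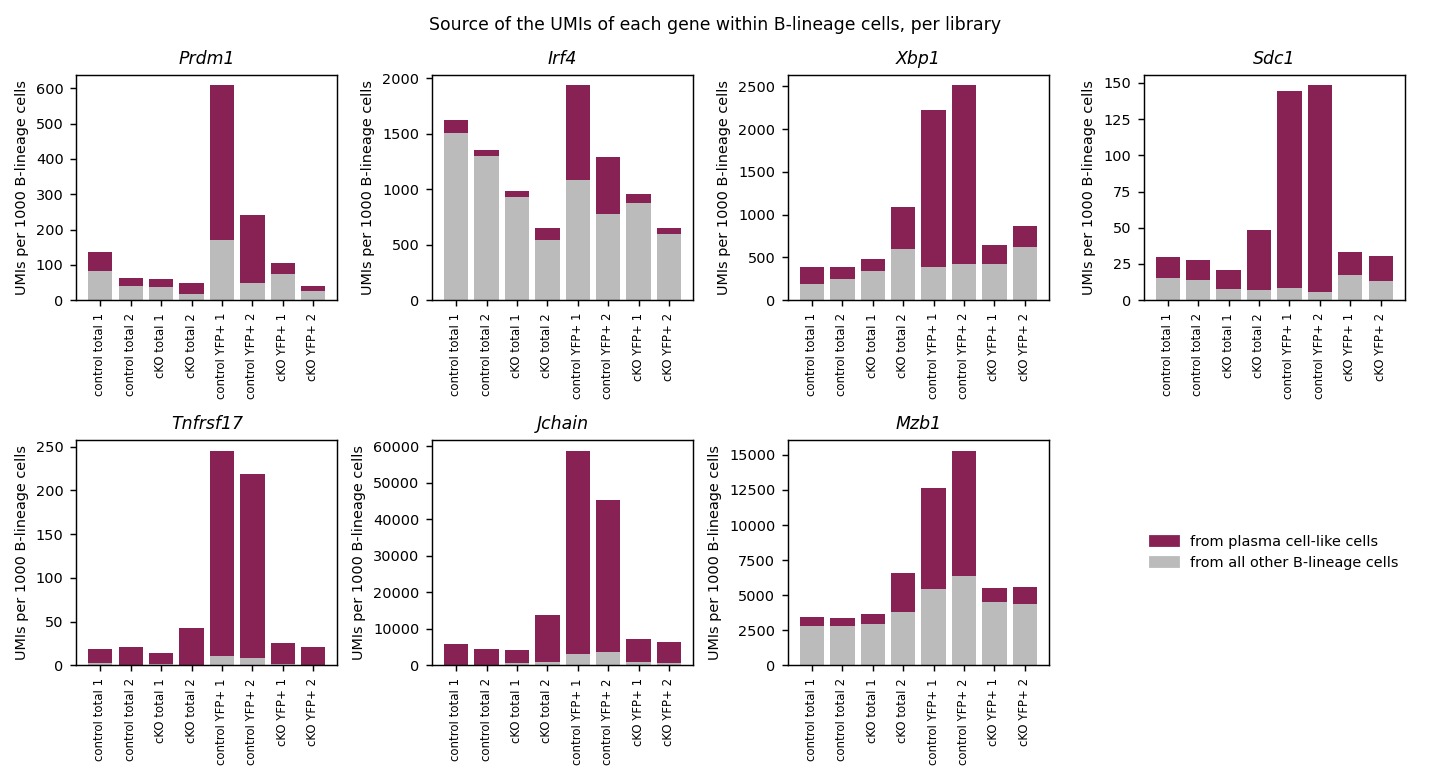
UMIs of each of the 7 genes per 1000 B-lineage cells, stacked by whether they came from plasma cell-like cells or from the other B-lineage cells, with 1 bar per library. Of Jchain, plasma cell-like cells gave 55712 and 41616 in the control YFP+ libraries and 6207 and 5816 in cKO YFP+, while most Irf4 lay outside this class in all 8 libraries.

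Within plasma cell-like cells of the YFP+ sort none of the 7 genes was called by edgeR, where 1.12% of 11478 genes were. 1 of the 7 had an unadjusted p under 0.05, and DESeq2 called none. Prdm1 was at 213 and 110 CPM in control YFP+ and at 113 and 62.3 CPM in cKO YFP+, so cKO batch 1 stood just above control batch 2. Its difference was −0.86 on the log2 scale (95% interval −1.59 to −0.13, adjusted p 0.423), and −0.91 in batch 1 and −0.82 in batch 2 when each batch was read by itself. With the replicate block Prdm1 was called (−0.84, adjusted p 0.0378) as 1 of 288 genes, against 128 without it. Irf4 was at 416 and 289 CPM against 301 and 202 CPM (log2 −0.47, interval −1.11 to 0.18, adjusted p 0.791).

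Over the class as a whole, the receptors and secretory genes were as follows. Tnfrsf17 was at 114 and 119 CPM against 90.5 and 81.5 CPM (log2 −0.42, interval −0.99 to 0.15), groups that did not overlap (as for 36.0% of genes). Sdc1 was at 65.8 and 81.0 CPM against 59.4 and 70.5 CPM (−0.15, −0.75 to 0.45). Xbp1 was at 891 and 1186 CPM against 829 and 978 CPM (−0.17, −0.86 to 0.52). Both overlapped. Jchain was at 26995 and 23629 CPM against 22886 and 23676 CPM (−0.09, −0.87 to 0.69), and Mzb1 at 3511 and 5088 CPM against 3664 and 4830 CPM (0.01, −0.77 to 0.80). All 5 intervals include 0. The class joined 2 clusters, for which Xbp1 and Sdc1 are given singly. In the larger one, led by Prg2, Xbp1 was at 943 and 1266 CPM in control YFP+ against 1092 and 1212 CPM in cKO YFP+. In the other, led by Gm8879 and holding 28 and 20 cKO YFP+ cells, Xbp1 was at 794 and 1095 CPM against 462 and 511 CPM. Sdc1 was at 74.3 and 91.4 CPM against 78.0 and 82.3 CPM in the first and at 49.9 and 69.3 CPM against 33.5 and 46.9 CPM in the other. Both genes thus overlapped in the first cluster and not in the other. In the other Prdm1 and Tnfrsf17 did not overlap either, while Irf4, Jchain and Mzb1 did, and Tnfrsf17 was apart in the first as well. In the total sort Xbp1 and Sdc1 overlapped in the other cluster too. The share of all genes that lie apart was not counted within clusters and no test was made there, so no difference between the clusters is drawn from this.

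The calls within plasma cell-like cells depended on how a plasma cell was defined. When cells were instead taken by a gate of at least 7 of the 8 markers, an alternative chosen after seeing the data that kept 1973 of the 2402 cells and added 103 others, 5 of the 7 genes were called lower in cKO YFP+ among 1741 of 11615 genes called. These were Prdm1 (log2 −1.50, adjusted p 0.000938), Tnfrsf17 (−1.20, 0.00163), Sdc1 (−0.94, 0.0168), Irf4 (−0.94, 0.0253) and Xbp1 (−0.99, 0.0301). Jchain (−0.91, adjusted p 0.0848) and Mzb1 (−0.77, adjusted p 0.140) were not called. The gate held 707 and 928 control YFP+ cells against 117 and 103 cKO YFP+ cells, of which 22 and 14 (3.11% and 1.51%) in control and 29 and 25 (24.8% and 24.3%) in cKO lay outside the clusters. A looser gate of 4 markers took in 5449 B-lineage cells outside the clusters and called 6 of the 7 genes lower, among 2841 of 14165 genes called.

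In the total sort plasma cell-like cells numbered only 41 to 97 per library, and 0 of the 7 genes was called by edgeR (0.17% of 7667 genes tested, 2 of the 7 at an unadjusted p under 0.05, 0 by DESeq2). Prdm1 was at 235 and 166 CPM in control total and 120 and 67.9 CPM in cKO total (log2 −1.13, interval −1.75 to −0.51, adjusted p 0.325). It was −0.97 in batch 1 and −1.29 in batch 2. Irf4 was at 525 and 379 CPM against 316 and 220 CPM (−0.77, −1.30 to −0.25, adjusted p 0.482). Neither gene's groups overlapped in this sort, as for 30.4% of genes. The groups of the other 5 did, with Tnfrsf17 at −0.45 (interval −1.31 to 0.42), Jchain at −0.21 (−0.86 to 0.44), Sdc1 at −0.0047, Xbp1 at −0.0021 and Mzb1 at 0.47 (−0.25 to 1.18). The replicate block called 3 of the 7 among 313 genes, Prdm1 (−1.13, adjusted p 1.86e-07), Irf4 (−0.76, 7.11e-06) and Mzb1 (0.45, 0.0191), and Prdm1 was also called without control total batch 2 (−1.29, adjusted p 0.0230) and without cKO total batch 1 (−1.41, 0.0287). In all 4 groups batch 2 held less Prdm1 and less Irf4 (CPM) than batch 1.

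The other lists gave few calls within YFP+ plasma cell-like cells, where the median of all genes was −0.0042 on the log2 scale. Of the 16 other plasma cell programme genes and the 16 secretory genes none was called by edgeR (3 and 0 at an unadjusted p under 0.05), with medians of −0.29 and −0.10. Tent5c and Trp53inp1 of the first list and Derl3 and Creld2 of the second are also markers that named the class. Their values within it are therefore not independent of that naming. Of the 12 B cell programme genes none was called (3 unadjusted), while 10 had positive values and the median was 0.22. Pax5, the factor that holds B cell identity, was at 69.9 and 41.3 CPM in control YFP+ and at 127 and 77.6 CPM in cKO YFP+. In plasma cell-like cells of the total sort Pax5 was at 71.0 and 31.0 CPM (control) against 68.0 and 28.3 CPM (cKO). Of the 11 B cell programme genes tested in that sort 3 had positive and 8 negative values (median −0.14). The 10 cell cycle genes all had negative values with no call (median −0.68, 4 unadjusted). Of the 12 immunoglobulin constant genes 8 had negative values (median −0.67, 5 unadjusted), and Iglc2 fell (−1.58). Of 5 T cell markers tested Lef1 rose (1.97), while 3 had negative values and the median was −0.06. The T cell marker sum of these cells was 20.3 and 17.6 CPM in control YFP+ and 52.0 and 34.5 CPM in cKO YFP+, and its part was not tested.

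**Figure D3:**
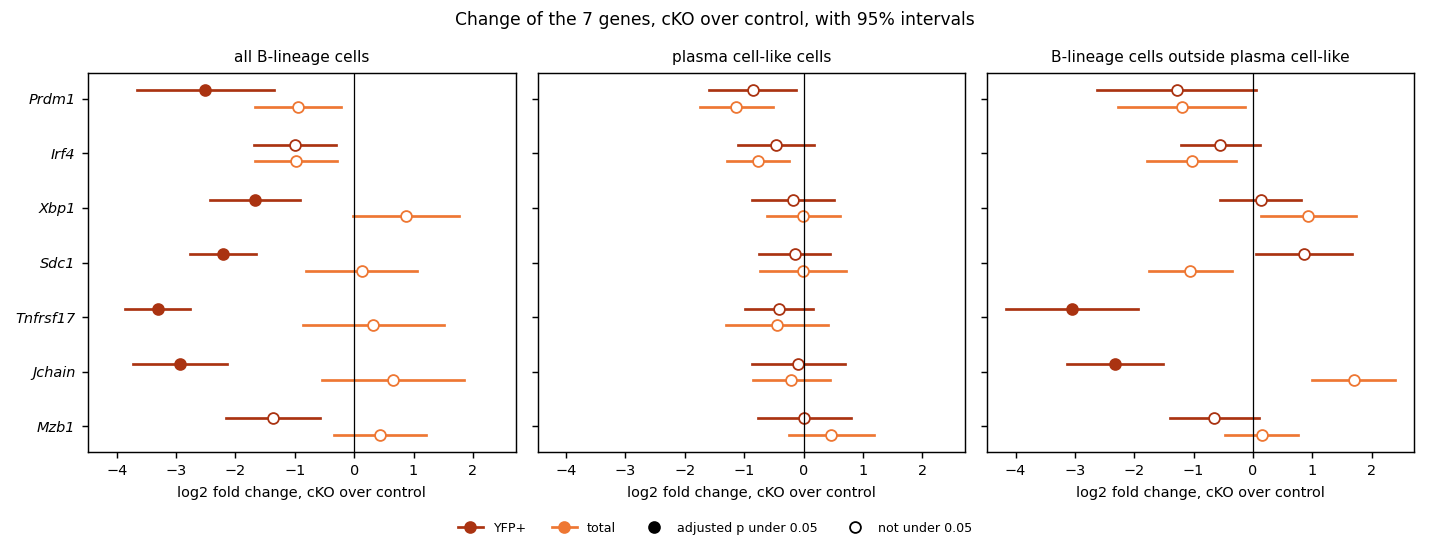
Log2 change of the 7 genes, cKO over control, with 95% intervals from the edgeR fit, in all B-lineage cells, plasma cell-like cells and B-lineage cells outside that class, for the YFP+ and the total sort. In YFP+ B-lineage cells all 7 intervals lie below 0, from −3.31 for Tnfrsf17 to −0.998 for Irf4, while within YFP+ plasma cell-like cells the interval of Prdm1 alone does.

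Outside plasma cell-like cells 2 of the 7 genes fell in cKO YFP+, Jchain and Tnfrsf17, where 6.12% of 15851 genes were called and 3.09% were called lower. Jchain was at 407 and 504 CPM in control YFP+ and at 108 and 72.0 CPM in cKO YFP+ (log2 −2.32, SE 0.348, 4.996-fold, adjusted p 0.0132, and 0.0638 without cKO YFP+ batch 2). Tnfrsf17 was sparse, at 1.35 and 1.12 CPM (90 and 94 UMIs) against 0.17 and 0.081 CPM (14 and 8 UMIs), with log2 −3.04 (SE 0.479, adjusted p 0.0118, and 0.0563 with library sums in place of TMM scaling). Of its UMIs 81 lay in memory B-like cells, where the groups overlapped. That class made up 8.49% and 8.20% of control YFP+ B-lineage cells, against 0.611% and 0.452% for cKO YFP+. In the 7 named classes with enough UMIs, plasma cell-like included, both cKO libraries were lower in 5 and the groups overlapped in 2. The lower order held for a median of 21.1% of genes over the YFP+ classes. The part of class numbers was not tested. No UMI of Tnfrsf17 was counted in T cells of the YFP+ libraries, which were too few to set a background for so sparse a gene. For Jchain, the level in T cells, which should lack it, was set beside each value, and the source of that level was not tested.

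The T cell level lay near that of many B-lineage cells. Outside plasma cell-like and germinal centre-like (GCB-like) cells Jchain was at 202 and 177 CPM in control YFP+, with T cells at 167 and 150 CPM. In cKO YFP+ the values were 48.1 and 34.1 CPM, with T cells at 28.3 and 16.5 CPM. Across all 8 libraries these remaining B-lineage cells held 0.527 to 2.07 times the T cell level. In naive B-like cells thinned to 2000 UMIs the share with a Jchain UMI was 32.2% and 24.0% in control YFP+ against 26.1% and 18.3% of T cells, and 4.79% and 2.92% in cKO YFP+ against 4.57% and 3.57%. Median depths before thinning were 3985 and 2802 UMIs in naive B-like cells and 5706.5 and 3636.5 UMIs in T cells of control YFP+, and 4917 and 6135 against 5043 and 5003 in cKO YFP+. The call of Jchain in naive B-like cells (198 and 143 CPM against 24.9 and 14.3 CPM, log2 −3.02, adjusted p 0.0153) stands beside a fall of the same kind in T cells and was not read as a change of expression. T cells of the YFP+ libraries numbered 340 and 62 in control and 364 and 29 in cKO.

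GCB-like cells were above the T cell level. They held Jchain at 742 and 775 CPM in control YFP+ and at 819 and 958 CPM in cKO YFP+, with a difference of 0.27 on the log2 scale (interval −0.29 to 0.82, adjusted p 0.966). A Jchain UMI was seen in 44.3% to 82.8% of thinned GCB-like cells. These cells supplied 69.2% and 84.1% of the Jchain UMIs outside plasma cell-like cells of control YFP+, against 59.0% and 54.6% for cKO YFP+. They made up 19.1% and 29.5% of control YFP+ B-lineage cells, against 3.71% and 2.01% for cKO YFP+. In the total sort the GCB-like share went the other way, from 1.02% and 0.641% to 2.49% and 3.39% (adjusted p 0.0265). GCB-like cells supplied 41.2% and 36.5% of the Jchain UMIs outside plasma cell-like cells in control total, against 83.4% and 75.6% in cKO total. Without them Jchain was at 17.5 and 26.2 CPM (control) against 16.7 and 33.2 CPM (cKO), which overlapped, and their part was not tested. With them Jchain outside plasma cell-like cells was at 28.9 and 40.2 CPM for control against 92.6 and 123 CPM for cKO. That difference of 1.70 (interval 0.999 to 2.39) did not pass the test without the replicate block (adjusted p 0.111) and did with it (1.70, adjusted p 0.000191), and it was called without any 1 of the 4 total libraries (1.41 to 2.01).

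**Figure D4:**
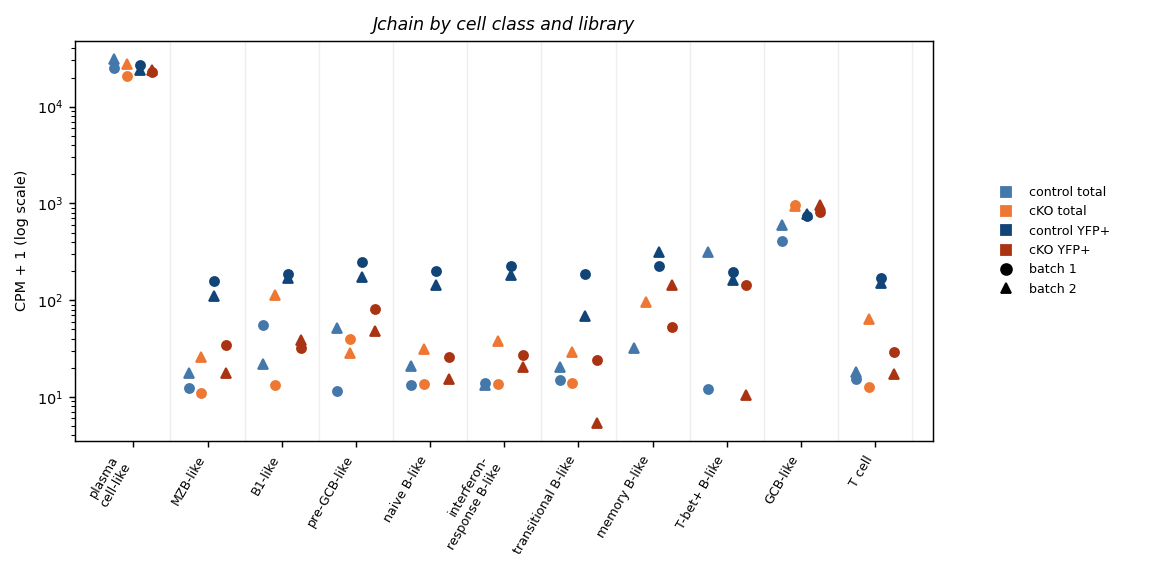
Jchain, as CPM + 1 on a log axis, by B-lineage class and in T cells, with 1 point per library coloured by group. GCB-like cells lie between 407 and 972 CPM in all 8 libraries, and the naive B-like cells of control YFP+ (198 and 143 CPM) lie near the T cells of the same libraries (167 and 150 CPM).

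The other 5 genes outside plasma cell-like cells were not called in the YFP+ sort. Prdm1 was at 22.2 and 6.55 CPM against 8.48 and 2.70 CPM (log2 −1.29, adjusted p 0.294, and −1.28, 0.00119 with the replicate block). Irf4 was at 141 and 107 CPM against 101.4 and 63.1 CPM (−0.55, 0.396). Mzb1 was at 710 and 869 CPM against 525 and 462 CPM (−0.65, 0.363, and −0.62, 0.0496 with the block). Of these 3 genes Prdm1 alone overlapped between the groups, and 44.5% of all genes did not overlap. Xbp1 was at 51.1 and 58.3 CPM against 49.1 and 66.2 CPM (0.13, adjusted p 0.930) and overlapped. Sdc1, at 1.13 and 0.78 CPM against 1.97 and 1.40 CPM, was higher in both cKO libraries (0.86, interval 0.06 to 1.66, adjusted p 0.226) but had the opposite sign under the gate of 7 markers (−0.52). Prdm1 was also called without cKO YFP+ batch 1 (−2.18, adjusted p 0.000315) and without control YFP+ batch 2 (−1.85, 2.55e-06). The block raised the number of genes called from 970 to 2802, and with library sums in place of TMM scaling 67.07% of calls were higher in place of 49.48%.

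In the total sort outside plasma cell-like cells 0 of the 6 genes tested was called by edgeR (0.0888% of 14646 genes were, 5 of the 6 had an unadjusted p under 0.05, and DESeq2 called 2). Tnfrsf17 had too few counts to be tested, at 0.34 and 0.091 CPM against 0.17 and 0.12 CPM. Irf4 was at 220 and 225 CPM in control total and at 139 and 72.6 CPM in cKO total (log2 −1.03, adjusted p 0.361), and Xbp1 was at 28.4 and 43.0 CPM against 51.7 and 79.1 CPM (0.93, 0.461). Prdm1 was −1.20 (adjusted p 0.489), Sdc1 −1.05 (0.273) and Mzb1 0.14 (0.999). The replicate block called 4 of the 6 among 1953 genes: Jchain, Prdm1 (−1.25, adjusted p 0.0053), Xbp1 (0.93, 0.0014) and Sdc1 (−1.06, 0.0292). Without cKO total batch 1 Prdm1 (−1.93), Irf4 (−1.50), Xbp1 (1.25) and Jchain (1.93) were called, and without control total batch 2 Prdm1 (−1.52), Xbp1 (1.33) and Jchain (2.01).

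Irf4 and Prdm1 were then followed through the single classes of B-lineage cells. Irf4, which also acts in marginal zone and activated B cells, was lower in both cKO libraries than in both control libraries in 8 of 10 named YFP+ classes. It was so in 6 of 8 named total classes, and higher in none of either sort. Such an order was seen for a median of 21.1% of genes over the YFP+ classes and 16.9% over the total classes. Among the total classes it held for 18.5% of genes in GCB-like, 17.4% in interferon-response and 14.6% in transitional B-like cells, and in the YFP+ sort for 22.9% in B1-like, 19.5% in plasma cell-like and 16.6% in MZB-like cells. The opposite order, both cKO libraries above both controls, held for 14.8% of genes among GCB-like and 10.4% among memory B-like cells of the YFP+ sort. Of the named classes other than plasma cell-like cells, MZB-like cells held the most in all 8 libraries, at 309 and 289 CPM in control total against 268 and 183 CPM in cKO total, and for the YFP+ sort at 319 and 291 CPM (control) against 227 and 162 CPM (cKO). B1-like cells held 229 and 234 CPM in control YFP+ and 179 and 113 CPM in cKO YFP+. Naive B-like cells of the total sort held 205 and 229 CPM (control) against 104 and 60.4 CPM (cKO), and those of the YFP+ sort 200 and 235 CPM against 80.8 and 34.9 CPM, with a difference in the YFP+ sort of −1.83 (interval −2.70 to −0.96, adjusted p 0.116). It was called without cKO YFP+ batch 1 (−2.46, adjusted p 0.000193), control YFP+ batch 1 (−1.99) or control YFP+ batch 2 (−1.65).

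Memory B-like cells of the YFP+ sort held 200 and 210 CPM of Irf4 in control and 100.5 and 52.8 CPM in cKO, and interferon-response B-like cells 207 and 227 against 108 and 39.9 CPM. In GCB-like cells, which keep Irf4 low, it was at 33.8 and 31.4 CPM against 19.7 and 13.6 CPM (log2 −0.92, interval −1.42 to −0.42, adjusted p 0.109), in the range of T cells or below (33.6 to 61.6 CPM). The naive B-like class was not made of the same cells in both genotypes. In the YFP+ sort control naive B-like cells came mostly from a cluster led by Slc16a10 and Maml3 (1678 and 2196 cells, with 92 and 66 in cKO) and cKO ones from a cluster led by Lifr and Rflnb (2315 and 2116 cells, with 104 and 61 in control) and another led by Pde3a and Scn3a (663 and 3184 cells, with 0 in both controls).

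Among the named classes other than plasma cell-like cells Prdm1 was highest in B1-like cells in all 8 libraries. In control YFP+ batch 1 an unnamed cluster of 22 cells, with 10 UMIs of Prdm1, lay above them at 84.8 CPM. The same cluster held 3139 of 9495 and 2256 of 10393 B-lineage cells in cKO YFP+. Its Prdm1 in batch 1 was lower in cKO YFP+ than in these 22 cells (log2 −3.75). Being unnamed, it is not among the classes counted for any of the 7 genes. B1-like cells of the total sort held 58.3 and 30.2 CPM (control) against 48.4 and 23.4 CPM (cKO). Those of the YFP+ sort held 66.3 and 30.1 CPM against 89.4 and 33.4 CPM, so that here the cKO values were not the lower ones. MZB-like cells held 37.7 and 13.8 CPM in control YFP+ and 14.97 and 4.22 CPM in cKO YFP+, which overlapped. For Prdm1 both cKO libraries were lower than both control libraries in 3 of 10 named YFP+ classes and 4 of 8 named total classes, and higher in none. The lower order held for a median of 21.1% of genes over the YFP+ classes and 16.9% over the total classes. The classes of a sort come from the same 4 libraries.

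**Figure D5:**
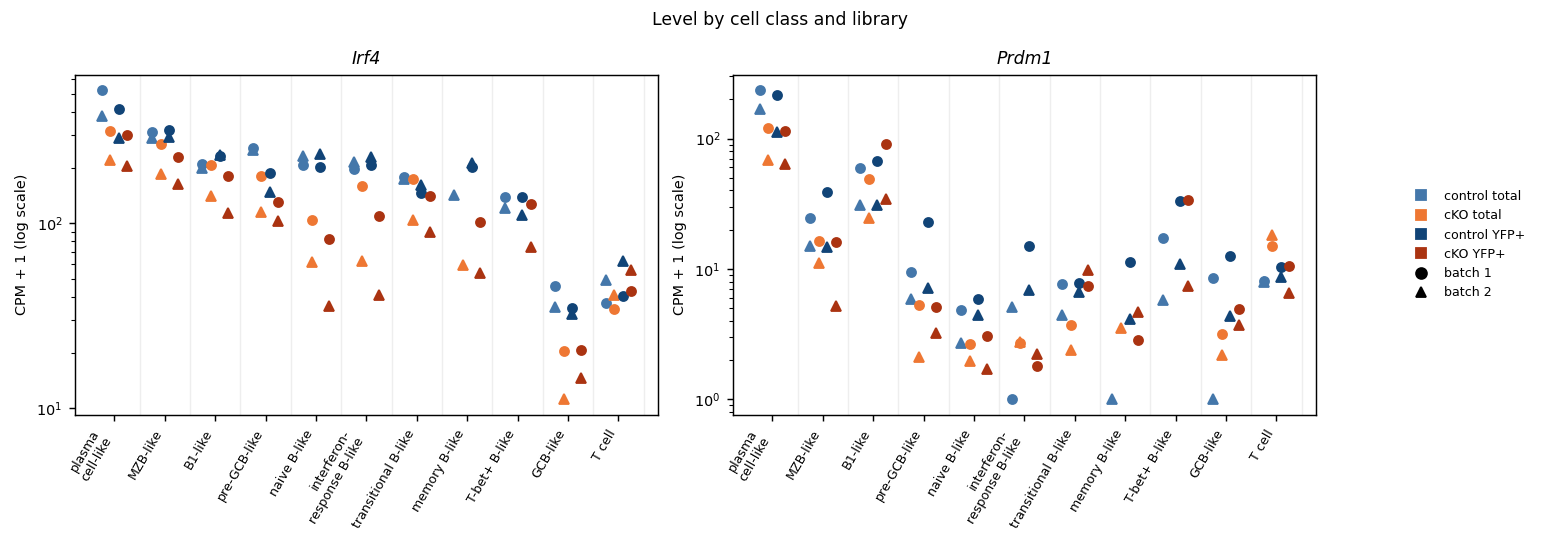
Irf4 and Prdm1, as CPM + 1 on a log axis, by B-lineage class and in T cells, with 1 point per library coloured by group. For Irf4 both cKO YFP+ libraries lie below both control YFP+ libraries in 8 of 10 named classes, whereas for Prdm1 they do so in 3 of 10. This order held for a median of 21.1% of genes over these classes.

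Xbp1 overlapped between the genotypes in 7 of 10 YFP+ and 5 of 8 total classes. Both cKO libraries were higher than both control libraries in the other 3 of each sort, an order seen for 8.61% to 27.9% and 9.52% to 18.3% of genes. In GCB-like cells of the YFP+ sort Xbp1 was at 71.0 and 71.0 CPM in control and 116 and 127 CPM in cKO (log2 0.81, interval 0.34 to 1.29, adjusted p 0.135). T cells of the total sort had the same order, with 18.2 and 26.7 CPM (control) against 30.1 and 58.2 CPM (cKO). In those T cells this order held for 26.8% of genes. Mzb1 was lower in 1 and higher in 3 of 10 YFP+ classes, and likewise in 1 and 3 of 8 total classes. Jchain was lower in 8 and higher in 1 of 10 YFP+ classes, beside the T cell levels given for it, and lower in 0 and higher in 1 of 8 total classes. The lower order held for a median of 21.1% of genes over the YFP+ classes and 16.9% over the total classes.

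Pre-GCB-like cells, the activated class marked by Myc and Batf, were the only one of the 3 YFP+ classes tested singly besides plasma cell-like cells in which more than 1 of the genes was called. Of the 6 genes tested 3 fell, where 13.9% of 12817 genes were called and 7.44% were called lower. Prdm1 was at 21.8 and 6.09 CPM in control YFP+ and 4.13 and 2.26 CPM in cKO YFP+ (log2 −2.03, adjusted p 0.0317, and −0.92, 0.109 without control YFP+ batch 1). It was not called with library sums (adjusted p 0.0720). Jchain was at 250 and 172 CPM against 80.5 and 47.6 CPM (−1.65, 0.00732, and 0.0715 in 1 model of all 8 libraries), with the T cell level as above. Mzb1 fell by 0.74 on the log2 scale (adjusted p 0.0382, and 0.120 and 0.431 without cKO YFP+ batch 1 or 2). Sdc1 (1.63, adjusted p 0.0561) and Irf4 (185 and 147 against 129 and 101.5 CPM, −0.46, 0.151) were not called, and the replicate block called both (1.63, adjusted p 0.0275, and −0.46, 0.00833). Xbp1 was −0.09 (interval −0.52 to 0.35). At clustering resolutions 0.5 and 1.5 1 of the 6 was called. The class also held different cells: in cKO YFP+ 627 and 770 of its cells came from a cluster led by Tnfsf4 and Phlda3 that had 21 and 22 cells in control YFP+.

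In the same class the B cell programme moved in part: Bcl6, a repressor of Prdm1, rose (log2 1.16), while Id3 (−0.84), Ebf1 (−0.72), Irf8 (−0.66) and Spib (−0.66) fell, 5 of 12 called in all. Of the 16 other plasma cell programme genes 4 fell, led by Ly6c2 (−3.46), Creb3l2 (−2.07) and Zbtb20 (−1.49), and of the secretory genes Derl3 fell (−1.20). In GCB-like cells of the YFP+ sort 0 of the 6 genes tested was called by edgeR (1.29% of 12150 genes were, 2 of the 6 at an unadjusted p under 0.05, 1 by DESeq2), and the replicate block called 3 among 1101 genes, Prdm1 (−1.05, adjusted p 0.0105), Irf4 (−0.92, 2.79e-06) and Xbp1 (0.82, 4.51e-06). Without the block Prdm1 was −1.03 (adjusted p 0.687), Sdc1 0.26 and Mzb1 0.08. Irf4 (−0.93 and −0.88) and Xbp1 (0.74 and 0.90) were also called without control YFP+ batch 1 or 2, and Prdm1 without batch 2 (−1.61). In naive B-like cells Jchain alone was called, lower in cKO (0.219% of 11856 genes were called and 0.0506% called lower), and the block called Prdm1 (−1.52, adjusted p 0.0204), Jchain and Mzb1 (0.44, 0.0269). Without the block Prdm1 was −1.49 (adjusted p 0.388), Sdc1 −1.03, Xbp1 0.39 and Mzb1 0.44. Prdm1 was also called there without cKO YFP+ batch 1 (−2.21, adjusted p 0.0115), and Jchain was not called with library sums (adjusted p 0.0823) or in 1 model of all 8 libraries (0.0904).

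The design also allows YFP+ cells to be set against total cells of the same genotype. In control mice 6 of the 7 genes rose in YFP+ B-lineage cells, where 8.29% of 15490 genes were called and 6.28% were called higher. Tnfrsf17 rose most, from 2.67 and 3.61 CPM in control total to 25.3 and 24.1 CPM in control YFP+ (log2 3.15, adjusted p 0.00564). Jchain rose from 851 and 771 CPM to 6069 and 4999 CPM (2.96, 0.00696). Xbp1 (2.28, 0.0108), Sdc1 (2.01, 0.00784), Prdm1 (1.74, 0.0481) and Mzb1 (1.69, 0.0377) rose as well. Irf4 stood apart, at 230 and 228 CPM in control total and 200 and 142 CPM in control YFP+ (−0.25, interval −0.92 to 0.42, adjusted p 0.623). Prdm1 was not called with library sums (1.59, adjusted p 0.115), in 1 model of all 8 libraries (1.77, 0.0613) or without control total batch 2 (1.44, 0.0536), nor Mzb1 without control total batch 1 (1.54, 0.287) or batch 2 (1.90, 0.118). All 10 cell cycle genes, 9 of 16 other plasma cell programme genes and 7 of 16 secretory genes rose too, and 6 of 7 T cell markers fell. The block raised the number of genes called from 1284 to 7209, and library sums in place of TMM moved the median of all genes from −0.0238 to −0.208.

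In cKO mice none of the 7 genes was called between the sorts by edgeR (0.0128% of 15586 genes were, 0 of the 7 at an unadjusted p under 0.05, 0 by DESeq2). Jchain was at 635 and 1749 CPM in cKO total and at 800 and 669 CPM in cKO YFP+ (log2 −0.66, interval −2.03 to 0.72). Prdm1 was at 8.65 and 6.10 CPM against 11.7 and 4.21 CPM (0.18), Xbp1 at 70.7 and 136 CPM against 72.8 and 89.3 CPM (−0.28), and Tnfrsf17 at 2.05 and 5.32 CPM against 2.91 and 2.14 CPM (−0.50). Each of these overlapped, while 49.9% of all genes did not. Sdc1 (−0.35), Irf4 (−0.27) and Mzb1 (−0.125) overlapped too. The replicate block called Irf4 alone (−0.26, adjusted p 0.00701) among 6823 genes.

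Whether the genotype difference itself differed between the sorts was tested as an interaction, which called 1 of the 7 genes and 1.65% of 16396 genes, with 1.36% called lower. For Tnfrsf17 the cKO difference was 3.66 lower on the log2 scale in YFP+ than in total B-lineage cells (SE 0.650, interval −5.18 to −2.14, adjusted p 0.0444), a call kept in 8 of 16 alternatives and lost without any 1 of 7 of the 8 libraries (adjusted p 0.0696 to 0.172). Jchain (−3.62, adjusted p 0.0510), Sdc1 (−2.37, 0.0791), Xbp1 (−2.57, 0.0805), Mzb1 (−1.83, 0.135) and Prdm1 (−1.59, 0.401) had negative values that were not called. For Irf4 the interaction was −0.03 (interval −0.95 to 0.89, adjusted p 0.996). The replicate block here joined the total and the YFP+ library of each genotype and batch, which are not known to share mice. It called 5 of the 7 among 3077 genes: Tnfrsf17, Xbp1 (−2.47, adjusted p 0.00278), Mzb1 (−1.75, 0.0164), Sdc1 (−2.28, 0.0218) and Prdm1 (−1.65, 0.0319). DESeq2 also called 5. Without cKO total batch 1 Jchain (−4.18, adjusted p 0.0154), Sdc1 (−2.81, 0.0176) and Xbp1 (−2.98, 0.0387) were called.

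In total B-lineage cells by themselves none of the 7 genes was called between genotypes by edgeR (0.0136% of 14708 genes were, 2 of the 7 at an unadjusted p under 0.05, 1 by DESeq2). Irf4 had the largest difference, from 230 and 228 CPM in control total to 143 and 81.3 CPM in cKO total (log2 −0.98, interval −1.66 to −0.29, adjusted p 0.343), and Prdm1 was at 19.3 and 10.5 CPM against 8.65 and 6.10 CPM (−0.94, adjusted p 0.397, and −0.91, 0.0173 with the replicate block). For Irf4, Prdm1 and Xbp1 the groups did not overlap, as for 32.4% of all genes. Xbp1 was at 54.6 and 65.8 CPM against 70.7 and 136 CPM (0.87, adjusted p 0.621), and Mzb1 at 494 and 575 CPM against 537 and 829 CPM (0.43). Jchain (0.65), Tnfrsf17 (0.32) and Sdc1 (0.13) varied more between the cKO total libraries than between the genotypes, and the sign of all 3 changed when single libraries were left out. Without cKO total batch 1 Prdm1 (−1.13, adjusted p 0.0176) and Xbp1 (1.31, 0.0146) were called, and Prdm1 also without control total batch 2 (−1.28, 0.00178).

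Across 70 sums of 1 class in 1 library, 7 of them plasma cell-like, the 10 genes whose level ran most like the mean of the 7 were Edem2, Prg2, H13, Cpeb3, Edem1, Arfgap3, Tex14, Dnajc3, Atat1 and Rhobtb1, with Pearson r of 0.955 to 0.921 among 9317 genes. Edem1, Edem2 and Dnajc3 act in protein quality control of the endoplasmic reticulum. These r describe the gap between plasma cell-like cells and all others, and the sums share libraries and depth. Among the 7 genes Tnfrsf17 and Jchain ran together over all 70 sums (r 0.86). Over the 63 sums outside plasma cell-like cells Prdm1 ran with Mzb1 (r 0.59) and with Irf4 (r 0.46), and Irf4 ran opposite to Xbp1 (r −0.75).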

How the data were processed

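Whole-number UMI counts per gene and cell were used as the authors deposited them, without normalization. The submitters' processing notes name GRCm38 and mm10, with no counting tool among the sources used here. The study's filter was applied (at least 201 UMIs, at least 101 genes and at most 10% mitochondrial UMIs), which removed 263 of 83967 barcodes. All columns could be mapped to a sample. Cells were scaled, 2000 variable genes were taken without the 7 genes and the immunoglobulin, T cell receptor, ribosomal protein and mitochondrial genes, and 30 principal components and 20 neighbours were used for Leiden clustering at resolution 1 (Python 3.11.15 with scanpy 1.11.5, igraph 0.11.9, pandas 2.3.3, numpy 2.4.6 and scipy 1.17.1). Classes were named from marker lists, so every name means "like", and the rebuilt names can differ from those of the study. Doublets were scored per library (expected share 8%, 0.997% to 2.89% marked, with the median threshold in the 4 YFP+ libraries) and kept.

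Counts were summed per class and library with at least 20 cells, and groups were compared by edgeR 4.0.16's quasi-likelihood F test (R 4.3.3, TMM, filterByExpr, robust, prior count 2), with Benjamini-Hochberg adjustment over all genes tested and a threshold of 0.05. Every adjusted p comes from this test unless DESeq2 (1.42.0) is named. Shares of classes were tested by the quasi-likelihood F test on cell numbers, with all B-lineage cells of the library as the total. That test used no TMM scaling or filterByExpr, a smaller prior count, and Benjamini-Hochberg adjustment over the classes. Levels are CPM of the class sum, intervals are 95% and cover the spread between 2 pools per group, and shares of cells cover counting error only. The scripts were tested on simulated data. The block uses the batch number of the labels, except for the interaction. There it joins the total and the YFP+ library of each genotype and batch as a pool. Same-numbered libraries deviated together, with r of 0.431, 0.419, 0.52 and 0.591 over 16396 genes in B-lineage cells and 0.268, 0.164, 0.355 and 0.274 over 9665 genes in plasma cell-like cells.

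The 7 genes and all lists were chosen with earlier results of these data known. All 7 were read in every comparison in which they could be tested, and from each other list at most 3 called genes each way with the largest change, while the other genes named (leading genes of clusters, Pax5 and another B cell programme gene in pre-GCB-like cells) were chosen after their values were seen. The alternatives were library sums or RLE scaling, no immunoglobulin genes, no filter on low counts, DESeq2, the replicate block, 1 model of all 8 libraries, doublets removed, stricter cell filters, other resolutions, gates on markers, and leaving out each library.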

Additional observations from a re-analysis of the deposited data

Results flagged for a closer look

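The interaction test called Tnfrsf17, whose cKO difference on the log2 scale was lower by 3.66 in YFP+ than in total B-lineage cells (interaction −3.66). Outside plasma cell-like cells Sdc1 and Jchain had values of opposite sign in the 2 sorts, with every cKO library on the same side of both control libraries within a sort. In the YFP+ sort 44.5% of all genes did not overlap between the groups, and the share for the total sort is not given here. Of these, Jchain in YFP+ cells alone passed the test without the replicate block (edgeR adjusted p 0.0132, against 0.111 for Jchain in total cells and 0.226 and 0.273 for Sdc1 in YFP+ and total cells). With the block both total-sort values were called as well (Jchain 1.70, adjusted p 0.000191, and Sdc1 −1.06, 0.0292). Sdc1 in YFP+ cells changed sign to −0.52 under the gate of 7 markers. For Sdc1 the log2 ratio of the mean cKO to the mean control CPM was 0.82 in YFP+ and −1.14 in total cells. For Jchain it was −2.34 in YFP+ and 1.64 in total cells. The difference between the sorts was not tested for either gene in these cells. In the total sort GCB-like cells supplied 41.2% and 36.5% (control) against 83.4% and 75.6% (cKO) of this Jchain. Without GCB-like cells the Jchain values of the total sort overlapped between the genotypes.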

How the results depend on the processing

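Of 855 values of the 7 genes under alternatives other than leaving out a library, 762 kept direction and side of the threshold, 13 lost the call, 58 gained it and 22 changed sign. Of 345 values with 1 library left out, 263 kept both, 16 lost the call, 31 gained it and 35 changed sign. Calls that a single library decided are given beside the results. No called value changed sign, and 1 reversed value was itself called. Apart from the values given beside the results, the replicate block changed no call of the 7 genes. With 2 pools a group and 41 to 97 plasma cell-like cells per total library, the precision is that of the intervals given. Where the count of genes called moved, the cause was not tested.

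The count of genes called in YFP+ B-lineage cells, 1220, was 490 with library sums, 3017 with the replicate block and 902 to 2547 without 1 library. In YFP+ plasma cell-like cells 128 became 288 with the block, 52 in 1 model of all libraries, 2841 under the gate of 4 markers, 1741 under the gate of 7 and 33 to 262 without 1 library. In YFP+ cells outside that class 970 became 167 with library sums, 1524 by DESeq2, 2802 with the block, 400 under the gate of 4 and 665 to 2246 without 1 library. In pre-GCB-like cells 1782 became 2758 with no filter, 4158 with the block, 967 at resolution 1.5 and 923 to 2772 without 1 library. In GCB-like cells 157 became 28 with library sums, 515 with no filter, 270 by DESeq2, 1101 with the block and 197 to 1009 without 1 library. In naive B-like cells 26 became 3 with library sums, 13 with RLE, 434 with no filter, 239 by DESeq2, 1345 with the block, 17 in 1 model of all libraries, 107 at resolution 0.5 and 113 to 532 without 1 library.

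In total B-lineage cells 2 became 0 with library sums, 12 without immunoglobulin genes, 117 with no filter, 348 by DESeq2, 1596 with the block, 14 in 1 model of all libraries, 12 with stricter cell filters and 164 to 706 without 1 library. Outside plasma cell-like cells 13 became 2 with library sums, 2 without immunoglobulin genes, 151 with no filter, 377 by DESeq2, 1953 with the block, 23 in 1 model, 8 with stricter cell filters, 2 under the gate of 4 and 167 to 653 without 1 library. In total plasma cell-like cells 13 became 8 without immunoglobulin genes, 169 with no filter, 27 by DESeq2, 313 with the block, 2 in 1 model, 80 under the gate of 4, 23 under the gate of 7 and 57 to 142 without 1 library. Between the sorts of control 1284 became 844 with library sums, 2071 by DESeq2, 7209 with the block and 1134 to 3470 without 1 library. Between the sorts of cKO 2 became 0 with library sums, 14 with RLE, 233 without immunoglobulin genes, 480 with no filter, 921 by DESeq2, 6823 with the block, 193 in 1 model and 527 to 1502 without 1 library. For the interaction 270 became 103 with library sums, 883 by DESeq2, 3077 with the block and 0 to 313 without 1 library. The log2 change of the plasma cell-like share in YFP+ cells, −3.20, was −1.45 with RLE over classes (adjusted p 0.0820) and −3.41 to −3.02 without 1 library, and in total cells 0.18 to 1.04 without 1 library.

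Signs changed for Mzb1 in YFP+ plasma cell-like cells, at −0.018 with library sums, −0.00043 with RLE, −0.030 with no filter, −0.00044 by DESeq2, −0.025 without doublets, −0.77 under the gate of 7 and −1.69 under the gate of 4, the one called (adjusted p 0.00530). Under the gate of 7 Xbp1 and Sdc1 in YFP+ cells outside the class were −0.32 and −0.52. In total plasma cell-like cells Xbp1 was 0.0090 with RLE, 0.0051 without immunoglobulin genes, 0.031 with no filter, 0.0094 by DESeq2, 0.0060 in 1 model and 0.18 under the gate of 4, and Sdc1 0.0058 with RLE, 0.0076 without immunoglobulin genes, 0.026 with no filter, 0.018 with stricter cell filters, 0.0028 under the gate of 4 and 0.037 under the gate of 7. The interaction of Irf4 was 0.055 with library sums.

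Leaving out 1 library in turn took the log2 change across 0 as follows. In YFP+ plasma cell-like cells Xbp1 ran from −0.41 to 0.068, Sdc1 from −0.39 to 0.053, Jchain from −0.22 to 0.025 and Mzb1 from −0.32 to 0.33. Xbp1 ran from −0.21 to 0.41 in YFP+ cells outside that class, from −0.25 to 0.068 in pre-GCB-like and from −0.23 to 0.79 in naive B-like cells, and Mzb1 from −0.11 to 0.31 in GCB-like cells. In total B-lineage cells Sdc1 ran from −0.56 to 0.59, Tnfrsf17 from −0.61 to 0.88 and Jchain from −0.35 to 1.25, and outside plasma cell-like cells Mzb1 ran from −0.024 to 0.32. In total plasma cell-like cells Xbp1 ran from −0.41 to 0.32, Sdc1 from −0.36 to 0.45, Tnfrsf17 from −0.93 to 0.25 and Jchain from −0.60 to 0.11. Between the sorts of cKO Irf4 ran from −0.56 to 0.087, Prdm1 from −0.61 to 0.69, Xbp1 from −0.73 to 0.40, Sdc1 from −0.83 to 0.38, Tnfrsf17 from −1.07 to 0.48, Jchain from −1.25 to 0.40 and Mzb1 from −0.47 to 0.35. The interaction of Irf4 ran from −0.31 to 0.36.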

Other observations

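The plasma cell-like class joined 2 clusters. The first, led by Prg2, Trf and Slpi, held 63.6% to 82.5% of the class in each library, with Jchain at 26124 to 38535 CPM and Tnfrsf17 at 81.4 to 183 CPM. The second, led by Gm8879, had deeper cells in each library (median 23772 to 45049 UMIs, against 16331 to 31222 in the first) and held Jchain at 5732 to 12798 CPM and Tnfrsf17 at 8.44 to 79.5 CPM. The clusters are named by their leading genes and, as they were drawn from these cells' expression, no test was made between them.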
